A study of Mus musculus with 24 samples.

Results

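The genes described here are 8 chemokine genes followed in mouse CD4+ T cells through activation, namely Ccl1, Ccl3, Ccl4, Ccl5, Ccl22, Xcl1, Cxcl9 and Cxcl10. They were picked by symbol, with earlier results of these libraries known, from genes whose counts changed with activation, so their change with time is given as a description with no test. All 8 were among the 54446 identifiers of the count table, and all 8 were among the 15325 genes that passed the filter on low counts. RNA-seq was run on splenic CD4+ T cells of mice on a C57BL6 background, 3 wild-type (WT) mice labelled 1, 3 and 4 and 3 Aim2-/- mice labelled 1, 2 and 4. AIM2 is a sensor of double-stranded DNA in the cytosol. Each mouse gave an unstimulated control at 0 h and cells stimulated for 3, 6 and 24 h with anti-CD3/CD28, that is, antibodies that trigger the antigen receptor and the costimulatory receptor of T cells. This gave 24 libraries in 8 groups of 3, and both genotypes received the same culture and antibodies. According to the study's methods, cells for stimulation were enriched by negative immunomagnetic selection, which can leave other cell types in small numbers, and mice were matched for age and sex.

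Chemokines are small secreted proteins that direct the movement of leukocytes through G protein-coupled receptors, and the spacing of their first cysteines gives the CC, CXC and XC families. CCL3, CCL4 and CCL5 are inflammatory CC chemokines that attract T cells and monocytes, and CCL3 and CCL5 bind CCR1. CCL1 binds CCR8, CCL22 binds CCR4, XCL1 binds XCR1 on cross-presenting dendritic cells, and CXCL9 and CXCL10 bind CXCR3. Activated T cells secrete several of them, whereas macrophages, dendritic cells, natural killer (NK) cells and basophils are further sources.

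Most of the genes lie in ligand clusters of the GRCm38 genome. Ccl5 (chr11:83525778-83530518, minus strand), Ccl3 (chr11:83647844-83649355, minus strand) and Ccl4 (chr11:83662584-83664683, plus strand) share a cluster in which Ccl3 and Ccl4 are 13.2 kb apart. Cxcl9 (chr5:92321347-92328079) and Cxcl10 (chr5:92346638-92348889) lie 18.6 kb apart on the minus strand. Ccl22 (chr8:94745590-94751699, plus strand) is 20.3 kb from Cx3cl1 and 58.8 kb from Ccl17. Ccl1 (chr11:82176657-82305690) is 59.9 kb from Ccl8 and 73.3 kb from Ccl12. Both Ccl1 and Xcl1 (chr1:164931644-164935527) are on the minus strand. Xcl1 overlaps Gm20743 and Cxcl10 overlaps Art3 on the opposite strand, and whether reads were counted by strand was not given in the sources used here. Gm20743 had at most 4 counts and Art3 at most 57 counts in any library.

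RefSeq promoter windows (GRCm38.p6, 250 bases before to 50 after the start) were held for 6 of the 8 genes and not for Ccl4 and Ccl5. They were searched on both strands for a kappa B site, the gamma-activated site TTCNNNGAA, the interferon-stimulated response element core (GAAA, any 2 bases, GAAA), the AP-1 site TGANTCA, the NFAT core GGAAA and the TATA box TATAAA. The 250 bases before the start are shown for the neighbours Cxcl9 and Cxcl10, which differ in time course and share a receptor, and for Ccl1, which had the largest fold increase of the 8. Capitals mark kappa B, response element, AP-1 and TATA matches, while the short NFAT core is left in lower case.
Cxcl10, chr5:92348890-92349139, minus strand: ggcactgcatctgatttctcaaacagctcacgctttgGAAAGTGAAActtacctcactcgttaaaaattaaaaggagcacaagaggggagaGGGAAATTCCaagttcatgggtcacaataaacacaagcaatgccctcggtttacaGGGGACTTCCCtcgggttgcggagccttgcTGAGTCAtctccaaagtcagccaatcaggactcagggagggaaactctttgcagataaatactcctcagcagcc
Cxcl9, chr5:92328080-92328329, minus strand: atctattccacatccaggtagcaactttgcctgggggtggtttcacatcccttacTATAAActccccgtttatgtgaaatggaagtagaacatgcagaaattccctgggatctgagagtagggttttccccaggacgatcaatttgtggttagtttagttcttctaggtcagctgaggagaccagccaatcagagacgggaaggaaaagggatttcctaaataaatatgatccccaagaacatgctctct
Ccl1, chr11:82179813-82180062, minus strand: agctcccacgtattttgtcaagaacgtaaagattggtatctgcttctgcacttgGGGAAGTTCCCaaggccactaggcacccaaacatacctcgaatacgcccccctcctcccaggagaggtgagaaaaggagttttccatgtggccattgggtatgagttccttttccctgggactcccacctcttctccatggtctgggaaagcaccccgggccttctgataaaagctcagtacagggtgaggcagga

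In Cxcl10 the response element match began 213 bases before the start, the kappa B matches began 159, 104 and 103 bases before it with the last pair overlapping, and the AP-1 match began 74 bases before it. The kappa B match of Ccl1 began 196 bases before its start and overlaps a match on the other strand. Cxcl9 held a TATA box match 195 bases before its start and an AP-1 match 32 bases after it, which is not shown. Of the 6 windows, 2 held a kappa B match against 8.46% of 32851 promoters, 1 held the response element core against 3.44%, and 2 held AP-1 against 7.81%. The NFAT core was in 5 of the 6 and in 61.34% of all promoters, the TATA box in 1 and in 13.62%, and the gamma-activated site in none and in 8.3%. These matches describe letters in a fixed window and say nothing of binding.

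The libraries held 19715161 to 21627018 counts. Levels are given as CPM, counts scaled to a common library size by edgeR's TMM method, and 3 counts in the shallowest library equal 0.152 CPM. The 9 CD4 T cell markers summed to 3650.1 to 5349 CPM, with none at 0. Aim2 itself did not follow the labels of 1 mouse. It was at 67.5 and 75 CPM at 0 h in WT 4 and WT 3, at 21.5 CPM in the mouse labelled WT 1, and at 15.7 to 20.1 CPM in the Aim2-/- mice, and WT 1 stayed with the Aim2-/- mice at 3 h (17 CPM), 6 h (11.5 CPM) and 24 h (5.57 CPM). Calls between genotypes are therefore given with all 6 mice and again without the mouse labelled WT 1.

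Of the inflammatory CC chemokine genes, Ccl3 and Ccl4 were low at rest and had their highest means at 6 h, whereas Ccl5 was highest at rest and lowest at 24 h. In WT mice 1, 3 and 4, Ccl3 was at 0.5, 0.413 and 0.456 CPM at 0 h, 68.9, 51.1 and 46.9 CPM at 3 h, 200, 158 and 263 CPM at 6 h, and 126, 73.1 and 119 CPM at 24 h. Its WT mean at 6 h was 454-fold its mean at 0 h, which rests on 27 counts over the 3 libraries. Ccl3 in Aim2-/- mice 1, 2 and 4 was at 5.61, 1.62 and 3.15 CPM at 0 h, 69, 46.6 and 156 CPM at 3 h, 311, 171 and 350 CPM at 6 h, and 375, 135 and 253 CPM at 24 h. In WT cells no 2 times neighbouring in level overlapped, and Ccl3 was lower at 24 h than at 6 h in all 3 WT mice. In Aim2-/- cells the 24 h values overlapped those of 3 and 6 h, and the mean at 6 h was 80.2-fold that at 0 h.

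Ccl4 followed Ccl3 closely. The 0 h libraries of WT mice 1, 3 and 4 held 0.75, 2.38 and 1.67 CPM, those of 3 h held 117, 82 and 65.5 CPM, those of 6 h held 264, 219 and 299 CPM, and those of 24 h held 138, 89.3 and 139 CPM. Aim2-/- mice 1, 2 and 4 had 5.56, 3.1 and 8.46 CPM of Ccl4 at 0 h, 103, 89.2 and 283 CPM at 3 h, 392, 237 and 470 CPM at 6 h, and 330, 124 and 233 CPM at 24 h. The mean at 6 h was 163-fold that at 0 h in WT cells and 64.2-fold in Aim2-/- cells, and all 6 mice were lower at 24 h than at 6 h.

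Ccl5, which encodes RANTES and is known from memory and cytotoxic lymphocytes, ran the other way and so does not share the label of a gene of activated cells. WT mice 1, 3 and 4 had 160, 118 and 129 CPM at 0 h, 125, 76.5 and 88.5 CPM at 3 h, 64.5, 50.8 and 60.5 CPM at 6 h, and 8.51, 3.44 and 5.03 CPM at 24 h. The levels of Ccl5 in Aim2-/- mice 1, 2 and 4 were 251, 250 and 333 CPM at 0 h, 175, 171 and 224 CPM at 3 h, 136, 126 and 153 CPM at 6 h, and 24.7, 12.5 and 15.4 CPM at 24 h. Every mouse was lower at each later time, and the mean at 0 h was 24-fold (WT) and 15.9-fold (Aim2-/-) that at 24 h. In bulk RNA, fewer cells that carry Ccl5 and less Ccl5 RNA per cell cannot be told apart.

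The ligands of CCR8 and CCR4 had their highest means at 24 h in both genotypes. Ccl1 measured 0.25, 0.207 and 0.304 CPM in WT mice 1, 3 and 4 before stimulation, then 35.3, 10.9 and 8.87 CPM at 3 h, 168, 76.9 and 103 CPM at 6 h, and 176, 73.7 and 149 CPM at 24 h. Its levels in Aim2-/- mice 1, 2 and 4 were 0.677, 0.246 and 0.148 CPM before stimulation, then 30.7, 19.3 and 53.3 CPM at 3 h, 263, 108 and 247 CPM at 6 h, and 664, 145 and 253 CPM at 24 h. The mean at 24 h was 524-fold (WT) and 992-fold (Aim2-/-) that at 0 h, over 0 h sums of 15 and 22 counts, and the 6 h and 24 h values overlapped in both genotypes.

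Ccl22, a ligand of CCR4 known mainly from dendritic cells and macrophages and also made by activated T cells, was the slowest of the 8. WT mice 1, 3 and 4 started at 0.2, 0.207 and 0.203 CPM and had 0.925, 2.27 and 1.03 CPM at 3 h, 6.12, 18.5 and 17 CPM at 6 h, and 29.1, 52.1 and 62 CPM at 24 h. Aim2-/- mice 1, 2 and 4 started at 0.919, 0.197 and 0.0984 CPM and had 6.57, 0.779 and 4.7 CPM at 3 h, 64.2, 10.6 and 37.8 CPM at 6 h, and 262, 41.9 and 98.6 CPM at 24 h. The mean at 24 h was still 3.44-fold (WT) and 3.57-fold (Aim2-/-) that at 6 h, and all 6 mice were higher at 24 h than at 6 h. The 0 h values come from 12 counts in all over the WT libraries and 25 over the Aim2-/- libraries, 19 of them in Aim2-/- 1.

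Xcl1, which encodes lymphotactin, was already present at rest. Resting cells of WT mice 1, 3 and 4 had 9.45, 25.2 and 39.2 CPM, with 80.4, 70.7 and 65.2 CPM at 3 h, 202, 153 and 184 CPM at 6 h, and 131, 79.5 and 141 CPM at 24 h. Resting cells of Aim2-/- mice 1, 2 and 4 had 37.9, 13.7 and 22.9 CPM, with 97.2, 52.7 and 157 CPM at 3 h, 312, 146 and 378 CPM at 6 h, and 461, 140 and 257 CPM at 24 h. The 6 h mean was 7.31-fold (WT) and 11.2-fold (Aim2-/-) the 0 h mean, a smaller fold than that of Ccl3 or Ccl4. All 3 WT mice were lower at 24 h than at 6 h, whereas 1 of the 3 Aim2-/- mice was higher.

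The CXCR3 ligands, both known as targets of interferon gamma signalling, had their highest means at 3 or 6 h. Cxcl9 levels in WT mice 1, 3 and 4 were 0.35, 0.258 and 0.253 CPM at 0 h, 6.34, 4.72 and 5.04 CPM at 3 h, 11, 6.47 and 6.33 CPM at 6 h, and 4.35, 3.6 and 5.75 CPM at 24 h. Those in Aim2-/- mice 1, 2 and 4 were 1.69, 0.344 and 1.13 CPM at 0 h, 35, 28.8 and 63.8 CPM at 3 h, 40.3, 38.3 and 84.9 CPM at 6 h, and 48.6, 13 and 24 CPM at 24 h. The 3 h and 6 h values overlapped in both genotypes, as did those of 3 h and 24 h.

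Cxcl10 was detected at rest, with 20.4, 10.1 and 14.5 CPM in WT mice 1, 3 and 4, and these mice had 92.9, 56 and 86.3 CPM at 3 h, 65.7, 48 and 75.5 CPM at 6 h, and 4.71, 3.6 and 5.8 CPM at 24 h. The resting levels of Aim2-/- mice 1, 2 and 4 were 38.8, 21.3 and 31.2 CPM, and these mice had 148, 127 and 191 CPM at 3 h, 109, 111 and 125 CPM at 6 h, and 36.1, 7.3 and 16.7 CPM at 24 h. It was the only gene of the 8 whose highest mean was at 3 h in both genotypes, and all 6 mice were lower at 6 h than at 3 h. At 24 h all 6 mice were below their own 0 h level, with the 24 h and 0 h ranges apart in WT cells and overlapping in Aim2-/- cells.

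**Figure D1:**
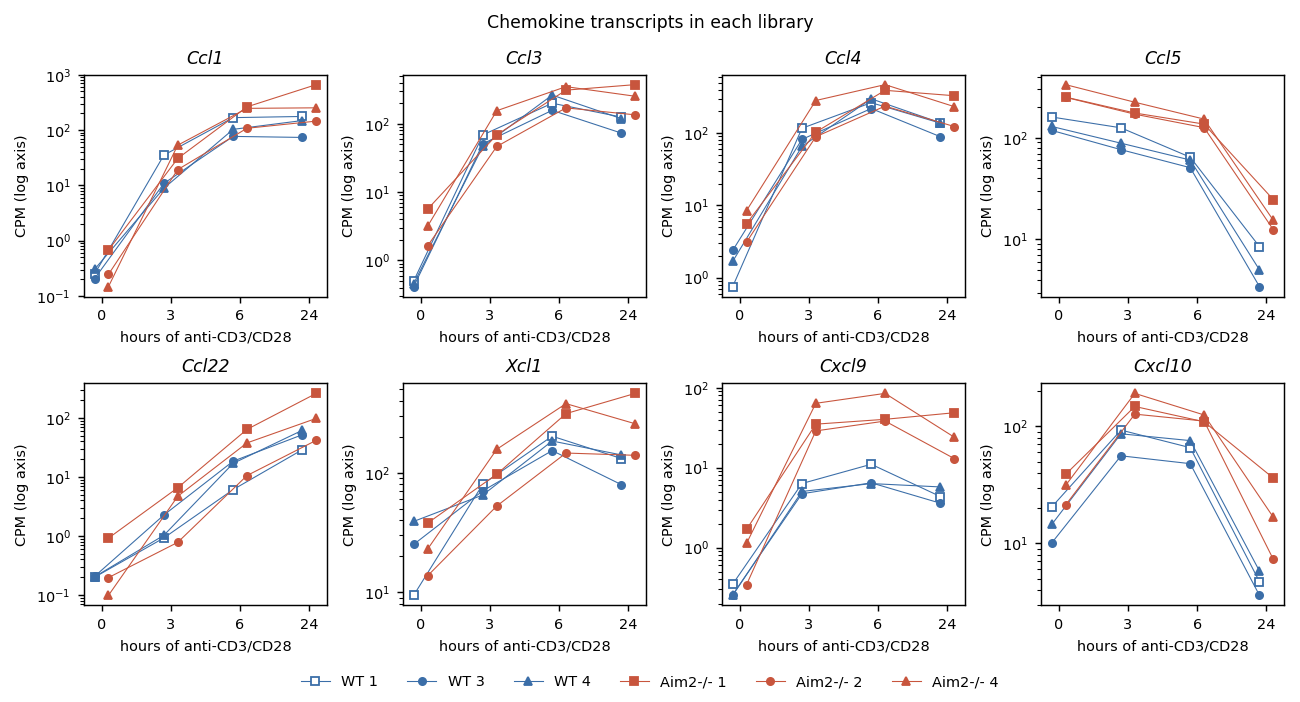
Level of each of the 8 genes in each library, in CPM on a log axis, against hours of stimulation (evenly spaced, not to scale), with 1 line per mouse, WT in blue and Aim2-/- in red. The open squares are the mouse labelled WT 1. Ccl5 alone declines throughout, Ccl1 and Ccl22 are highest at 24 h by group mean, and the 3 Aim2-/- mice lie above all WT mice for Cxcl9 at 3, 6 and 24 h.

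Levels were compared between genes as CPM per kb of merged exons. At 0 h Ccl5 led in WT cells with 142 ± 22.6 CPM per kb (SD, n = 3), followed by Xcl1 with 47 ± 28.4, while Ccl22 (0.0873), Cxcl9 (0.0952) and Ccl1 (0.107) were lowest. At 6 h Ccl4 (395 ± 60.6), Xcl1 (344 ± 47.4) and Ccl3 (270 ± 69.5 CPM per kb) led in WT cells, and the ranges of mean ± SD overlapped between neighbours in this order. At 24 h Xcl1 (224 ± 63.2), Ccl4 (185 ± 43) and Ccl3 (138 ± 37.3 CPM per kb) stayed ahead of Ccl1 (56.1 ± 22.4) and Ccl22 (20.5 ± 7.27 CPM per kb). The same 3 genes led in Aim2-/- cells at 6 and 24 h, with Ccl4 at 555 ± 180 CPM per kb at 6 h and Xcl1 at 546 ± 310 CPM per kb at 24 h. The annotated exons of Ccl1 add up to 2369 bases over a gene model of unusual span, so its level per length depends on which of its annotated exons these cells use, which was not tested.

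**Figure D2:**
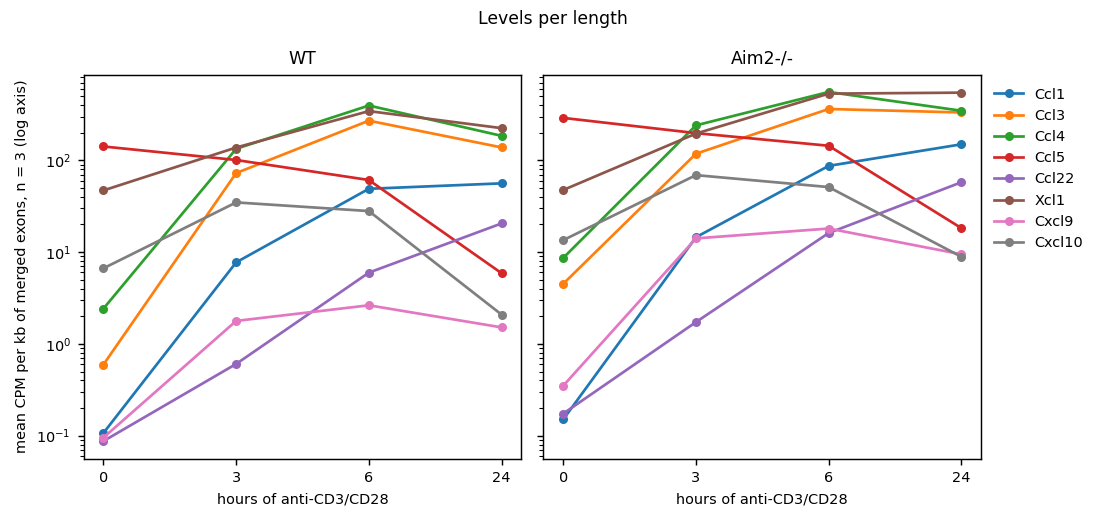
Mean level of each of the 8 genes per length (CPM per kb of merged exons, log axis, mean of 3 libraries, no error shown) against hours of stimulation (evenly spaced, not to scale), in WT and Aim2-/- cells. Ccl5 changes from the highest line at 0 h to among the lower lines at 24 h, and Ccl3, Ccl4 and Xcl1 lead at 6 and 24 h in both genotypes.

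The comparison of genotypes asked whether cells of Aim2-/- mice carried other levels of these transcripts at each time. The Aim2-/- mean was above the WT mean in all 32 combinations of gene and time, and 8 of the 32 passed edgeR's quasi-likelihood test at an adjusted p under 0.05. At 0 h 2 of the 8 genes were called higher, against 3.24% of all genes tested, at 3 h 1 against 0.254%, at 6 h 2 against 8.78%, and at 24 h 3 against 0.659%. The median log2 difference over the 8 genes was 1.03, 0.94, 0.85 and 1.45 at 0, 3, 6 and 24 h, and over all genes tested it was -0.0056, 0.0018, 0.051 and 0.0060. The ranges of the genotypes did not overlap for 4, 3, 3 and 4 of the 8 genes, against 14.1%, 7.8%, 18.6% and 11.1% of all genes at 0, 3, 6 and 24 h.

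Without the mouse labelled WT 1, the genes called higher were 1, 2, 2 and 2, against 4.27%, 1.97%, 7.83% and 0.92% of all genes. The median log2 difference of the 8 was then 1.24, 1.16, 0.99 and 1.54, against -0.013, 0.011, 0.033 and 0.011 over all genes. The Aim2-/- mean was above that of the other two WT mice for 7 of the 8 genes at 0 h, Xcl1 being the exception, and for all 8 at the later times. The ranges did not overlap for 5, 5, 4 and 4 of the 8, against 21.9%, 17.9%, 27.1% and 17.5% of all genes. Of the calls made with all mice, that of Cxcl9 at 6 h alone was kept whichever mouse was left out.

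Cxcl9 showed the largest difference of the 8 at 3, 6 and 24 h. Its mean in Aim2-/- cells was 7.93-fold that in WT cells at 3 h (42.5 ± 18.7 against 5.37 ± 0.857 CPM, SD, n = 3), 6.86-fold at 6 h and 6.25-fold at 24 h, with no overlap at these times. The log2 difference was 2.98 (SE 0.45, edgeR adjusted p = 0.00754) at 3 h, 2.77 (SE 0.44, edgeR adjusted p = 0.00369) at 6 h and 2.64 (SE 0.45, edgeR adjusted p = 0.0117) at 24 h. Without WT 1 these became 3.12, 3.09 and 2.61 with edgeR adjusted p of 0.0076, 0.00569 and 0.034. The 24 h call was lost with the mouse as a random block (limma-voom adjusted p = 0.0623), and without Aim2-/- 1 (log2 difference 2.02, edgeR adjusted p = 0.0809), WT 3 (adjusted p = 0.221) or WT 4 (adjusted p = 0.0758). The 3 h call was lost without Aim2-/- 4 (2.57, edgeR adjusted p = 0.0599), WT 3 (adjusted p = 0.112) or WT 4 (adjusted p = 0.139). At 0 h it was 1.86 (SE 0.78, edgeR adjusted p = 0.15), with 17 counts over the WT libraries and 65 over the Aim2-/- libraries, and without WT 1 it was 2.02 (edgeR adjusted p = 0.239).

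Ccl5 was higher in Aim2-/- cells at all 4 times, with no overlap between the genotypes at any time, though not called at 3 h. The ratios of means were 2.05, 1.96, 2.36 and 3.1 at 0, 3, 6 and 24 h. The log2 difference was 1.03 (SE 0.24, edgeR adjusted p = 0.0206) at 0 h, 1.24 (SE 0.24, edgeR adjusted p = 0.00601) at 6 h and 1.63 (SE 0.28, edgeR adjusted p = 0.0117) at 24 h. At 3 h it was 0.97 (SE 0.24, edgeR adjusted p = 0.0774). Without WT 1 Ccl5 was called at all 4 times, with log2 differences of 1.17, 1.20, 1.31 and 2.05 and edgeR adjusted p of 0.00686, 0.00876, 0.00396 and 0.00163. With the mouse as a random block the 3 h difference was also called (limma-voom adjusted p = 0.00493). Leaving out WT 4 lost the calls at 0, 6 and 24 h (edgeR adjusted p = 0.12, 0.0549 and 0.0984), WT 3 those at 0 and 24 h (0.117 and 0.18), Aim2-/- 4 that at 0 h (0.103) and Aim2-/- 1 that at 24 h (log2 difference 1.30, edgeR adjusted p = 0.159).

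Cxcl10 did not overlap between the genotypes at any time, yet it was called at 24 h alone. There it was at 20 ± 14.7 CPM in Aim2-/- cells and 4.7 ± 1.1 CPM in WT cells (SD, n = 3), a log2 difference of 2.09 (SE 0.42, edgeR adjusted p = 0.0285). The 24 h call was lost without WT 1 (log2 difference 2.09, edgeR adjusted p = 0.0618), WT 3 (adjusted p = 0.259), WT 4 (adjusted p = 0.104), Aim2-/- 1 (log2 difference 1.35, adjusted p = 0.344) or Aim2-/- 4 (adjusted p = 0.0863), and with the mouse as a block (limma-voom adjusted p = 0.0945). At 0, 3 and 6 h the differences were 1.02, 0.99 and 0.87 with edgeR adjusted p of 0.109, 0.21 and 0.0945, and at 6 h the block gave a call (limma-voom adjusted p = 0.021). Without WT 1 these differences were 1.31, 1.13 and 0.90 (edgeR adjusted p = 0.0988, 0.155 and 0.161).

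Ccl3 and Ccl4 differed most at rest. Ccl3 had 10, 8 and 9 counts in WT mice 1, 3 and 4 and 116, 33 and 64 counts in Aim2-/- mice 1, 2 and 4 at 0 h, a log2 difference of 2.91 (SE 0.80, edgeR adjusted p = 0.0408). The call was lost without WT 1 (2.98, edgeR adjusted p = 0.0887), without Aim2-/- 1 (2.37, edgeR adjusted p = 0.224), WT 3 (adjusted p = 0.163), WT 4 (adjusted p = 0.142) or Aim2-/- 4 (adjusted p = 0.072), and with the mouse as a block (limma-voom adjusted p = 0.305). Ccl4 had 15, 46 and 33 counts against 115, 63 and 172 counts at 0 h, a log2 difference of 1.84 (SE 0.61, edgeR adjusted p = 0.0743), and 1.5 without WT 1 (edgeR adjusted p = 0.203). At 3, 6 and 24 h the log2 differences of Ccl3 were 0.70, 0.42 and 1.26 and those of Ccl4 were 0.85, 0.49 and 0.91, with none called. Without WT 1 they were 0.88, 0.40 and 1.40 for Ccl3 and 1.10, 0.50 and 1.00 for Ccl4, also with none called.

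Ccl1, Ccl22 and Xcl1 were not called at any time with or without WT 1. Their largest log2 differences were 1.41 for Ccl1 at 24 h (SE 0.53, edgeR adjusted p = 0.151), 1.52 for Ccl22 at 3 h (SE 0.84, edgeR adjusted p = 0.388) and 1.28 for Xcl1 at 24 h (SE 0.48, edgeR adjusted p = 0.149). Aim2-/- 1 held the highest level in each of these, and without it they were 0.58 (adjusted p = 0.788), 0.96 (adjusted p = 0.707) and 0.76 (adjusted p = 0.69), while without WT 1 they were 1.67, 1.29 and 1.37 (adjusted p = 0.141, 0.487 and 0.194). Without Aim2-/- 2, Ccl1, Ccl22 and Xcl1 were called at 24 h (1.79, 1.92 and 1.61, edgeR adjusted p = 0.0214, 0.00912 and 0.0104). Ccl22 was then also called at 6 h (1.88, edgeR adjusted p = 0.00848). In that fit 8% of all genes were called higher at 24 h and 14% at 6 h. Xcl1 was the gene of the 8 with the smallest difference at rest, 24.8 ± 12.2 CPM in Aim2-/- cells and 24.6 ± 14.9 CPM in WT cells (SD, n = 3), and without WT 1 its estimate changed sign to -0.37 (SE 0.53, edgeR adjusted p = 0.729). Ccl22 ranges overlapped at all 4 times, since Aim2-/- 1 was above and Aim2-/- 2 below most WT values.

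**Figure D3:**
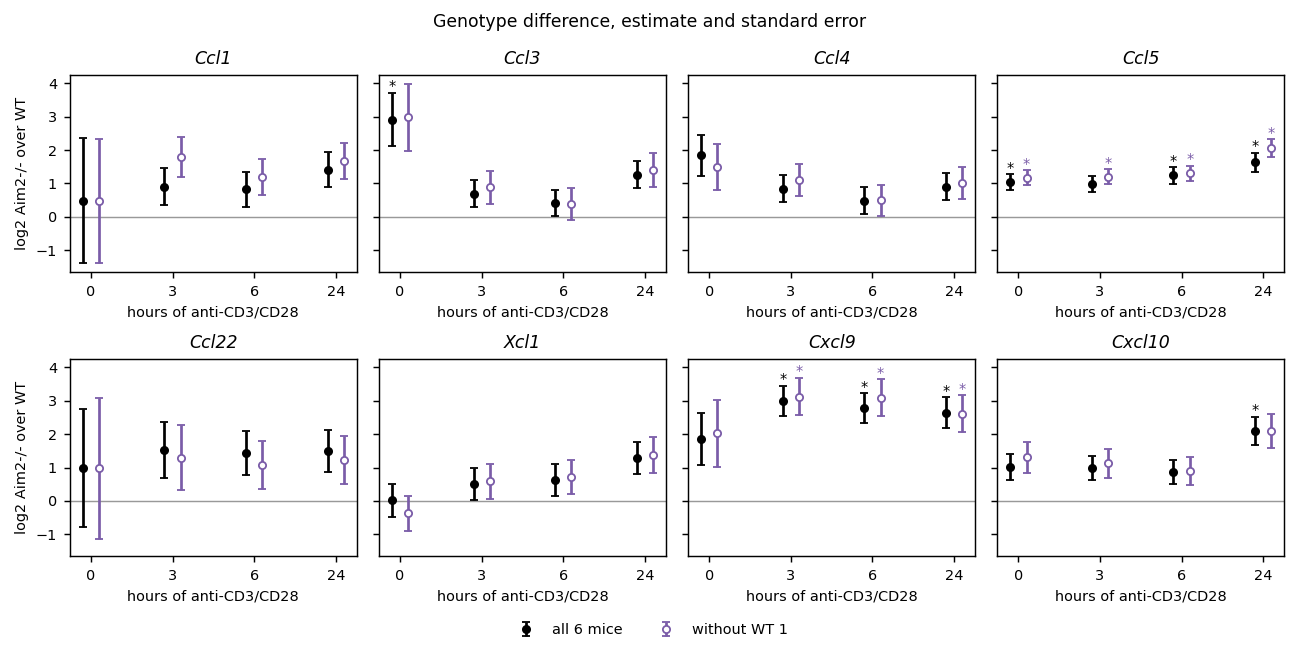
Log2 difference between Aim2-/- and WT cells for each of the 8 genes (y axis) at each time (x axis, hours, evenly spaced), with bars of 1 standard error. Filled black points use all 6 mice, open violet points leave out the mouse labelled WT 1, and asterisks mark an edgeR adjusted p under 0.05. Asterisks stand in both fits at Cxcl9 at 3, 6 and 24 h and Ccl5 at 0, 6 and 24 h, with all 6 mice alone at Ccl3 at 0 h and Cxcl10 at 24 h, and without WT 1 alone at Ccl5 at 3 h.

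Markers of other blood cells also differed between the genotypes. The 5 basophil and mast cell markers, among them Mcpt8 and Prss34, summed to 7.2 to 9.97 CPM in WT and 53.3 to 102 CPM in Aim2-/- libraries at 0 h, and to 6.93 to 13.2 against 45.2 to 183 CPM at 24 h. Their sums did not overlap at any of the 4 times, and 5, 3, 5 and 5 of the 5 were called higher at 0, 3, 6 and 24 h. The 10 myeloid and dendritic cell markers summed to 50.9 to 68.7 CPM in WT and 125 to 386 CPM in Aim2-/- libraries at 0 h, and to 17.4 to 32.3 against 39.8 to 186 CPM at 24 h, with no overlap at any time and 2, 0, 1 and 0 of the 10 called higher. The 6 NK cell markers summed to 38.6 to 58.5 CPM in WT and 105 to 124 CPM in Aim2-/- libraries at 0 h and overlapped at 24 h, with 1 of the 6, Eomes, called at 0 h and none later. B cell markers summed to 8.46 to 10.9 against 16.5 to 43.3 CPM at 0 h. The B cell sums were apart at all 4 times, with 2 of the 7 tested called at 0 h and at 6 h. Erythroid sums overlapped at all times, and 0 of the 6 were called. The CD8 T cell markers (Cd8a and Cd8b1) summed to 9.76 to 11.4 CPM in WT and 8.12 to 10.9 CPM in Aim2-/- libraries at 0 h, and the CD4 T cell sums overlapped at all times, with 1 of the 9 called higher at 6 h. Of all genes tested, 3.24%, 0.254%, 8.78% and 0.659% were called higher at 0, 3, 6 and 24 h. At 6 h, 1 call among the 10 myeloid and dendritic or the 9 CD4 T cell markers is near that share. Without WT 1, the basophil and mast cell calls were 5, 3, 5 and 4 at 0, 3, 6 and 24 h, the myeloid and dendritic calls were 1 at each time, the NK cell calls were 1, 1, 1 and 0, the B cell calls were 2, 0, 2 and 0, the erythroid calls were 0, 0, 1 and 0, and the CD4 T cell calls were 0, 0, 2 and 0. The shares of all genes called higher without WT 1 were 4.27%, 1.97%, 7.83% and 0.92%. Without that mouse the same lists were apart in their sums at the same times, with the erythroid sums also apart at 24 h. No marker of any list was at 0 in all libraries of a group. The part of these cells in the chemokine differences was not tested.

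**Figure D4:**
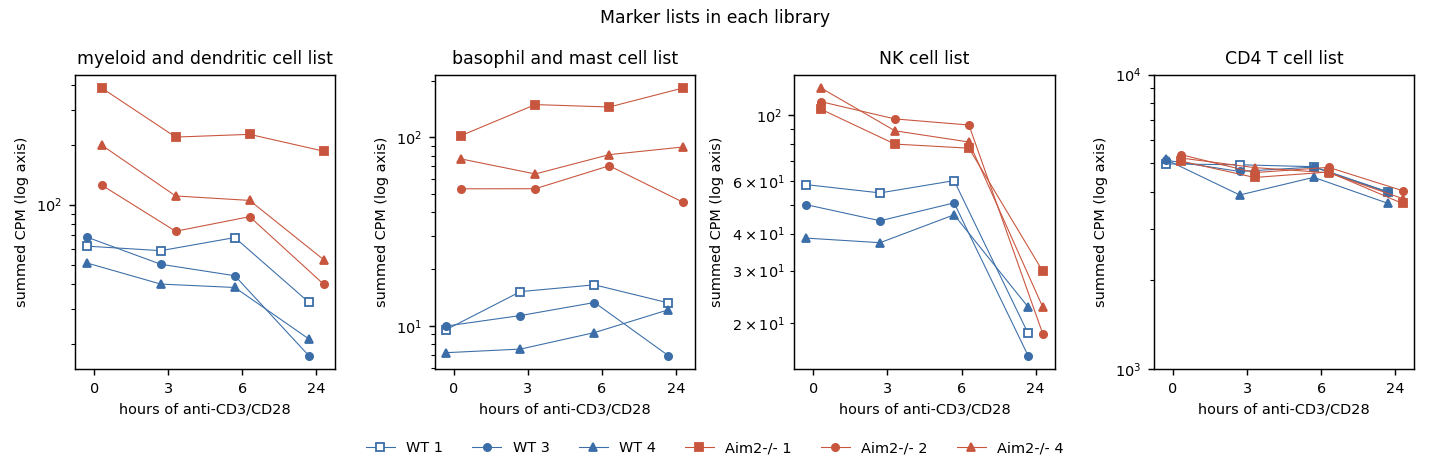
Summed CPM (log axis) of 4 marker lists in each library against hours of stimulation (evenly spaced, not to scale), with 1 line per mouse, WT in blue and Aim2-/- in red, and open squares for the mouse labelled WT 1. The Aim2-/- lines lie above the WT lines at all times for the myeloid and dendritic and the basophil and mast cell lists, with Aim2-/- 1 highest, whereas the CD4 T cell lines overlap.

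The mice differed among themselves in a way that ran across the 8 genes. Over the 32 combinations of gene and time, Aim2-/- 2 was the lowest of the 3 Aim2-/- mice in 29 and the highest in 0, while Aim2-/- 1 was the highest in 17 and Aim2-/- 4 in 15. Among WT mice, WT 1 was the highest in 18 and WT 3 the lowest in 20. As log2 deviation from the group mean, averaged over the 4 times of a mouse, Ccl22 spread most, from -1.24 in Aim2-/- 2 to 1.25 in Aim2-/- 1. Leaving out Aim2-/- 2 gave 5, 3, 4 and 8 genes called higher at 0, 3, 6 and 24 h, where calls over all genes stood at 7.77%, 4.64%, 14% and 8%. Leaving out Aim2-/- 1 gave 1, 1, 2 and 0, against 0.915%, 0.13%, 1.23% and 0.0909% of all genes, so calls over all genes moved with these mice as well.

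Deviations from the group means were positively correlated for all 28 pairs of the 8 genes over the 24 libraries, with Pearson's r from 0.036 (Ccl5 and Ccl22) to 0.84 (Ccl3 and Cxcl9) and a median of 0.64. These points share 6 mice, so they are a description of those mice. Deviations of the summed myeloid and dendritic cell markers had r from 0.42 (Ccl4) to 0.71 (Ccl1) with those of the 8 genes, and the basophil and mast cell sum had r from 0.40 (Ccl4) to 0.68 (Ccl1). With the NK cell sum, r was highest for Ccl5 (0.56) and Cxcl10 (0.53) and lowest for Ccl22 (-0.10). Other lists reached similar values, from 0.22 (Cxcl10) to 0.70 (Ccl22) for the erythroid sum, from 0.15 (Ccl4) to 0.66 (Ccl22) for the B cell sum and from 0.12 (Ccl5) to 0.55 (Ccl22) for the CD8 T cell sum. The CD4 T cell sum had r from -0.43 (Cxcl10) to 0.081 (Ccl1).

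**Figure D5:**
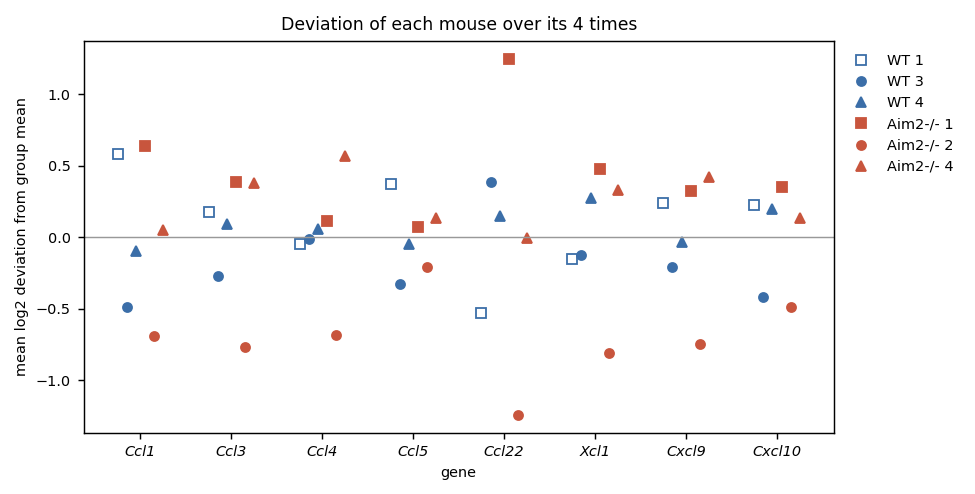
Deviation of each mouse from its group mean on the log2 CPM scale, averaged over its 4 libraries (y axis), for each of the 8 genes (x axis), with WT in blue, Aim2-/- in red and the mouse labelled WT 1 as open squares. The red circles, Aim2-/- 2, lie below 0 for all 8 genes, and Ccl22 shows the widest spread.

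Whether the genotype changed the response to stimulation was tested as the difference of the changes from 0 h. Of the 8 genes, 0 were called at 3, 6 or 24 h by edgeR, against 0%, 0.0261% and 0% of all genes. An unadjusted edgeR p under 0.05 was found for 1, 1 and 0 of the 8, and for 653, 2019 and 1825 of the 15325 genes tested. The lowest were both Ccl3, with -2.21 (SE 0.93, edgeR adjusted p = 1) at 3 h and -2.49 (SE 0.92, edgeR adjusted p = 0.24) at 6 h, a smaller log2 change in Aim2-/- cells. Without WT 1 they were -2.10 and -2.58 (edgeR adjusted p = 1 and 0.425), and 0 of the 8 were called at 3, 6 or 24 h, against 0%, 0.0511% and 0.102% of all genes. With the mouse as a fixed term the 6 h difference of Ccl3 was called (-2.45, SE 0.63, edgeR adjusted p = 0.0314), as it was in 3 of the 15 fits in all, and it rests on the 8 to 10 counts per WT library at 0 h. DESeq2 called 0, 1 and 0 of the 8 and limma-voom called 0 at each time. The difference for Cxcl9 was 1.13 (SE 0.99, edgeR adjusted p = 1) at 3 h, so its larger level in Aim2-/- cells was not shown to be a larger response.

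Of 33 other chemokine ligand genes, 32 were in the count table and 14 passed the filter on low counts. After stimulation of WT cells, 5, 5 and 4 of the 14 were called higher at 3, 6 and 24 h, against 16.2%, 26.4% and 36.6% of all genes, and 0, 1 and 3 were called lower, against 16.4%, 24.8% and 34.8%. In Aim2-/- cells, 5, 5 and 6 were called higher, against 16.1%, 28.5% and 36.8%, and 1, 1 and 2 lower, against 14.6%, 22.7% and 33.5%. Without WT 1, 2, 3 and 4 of 15 were called higher in WT cells, against 10.9%, 22.6% and 33.2%, and 0, 1 and 3 lower, against 11.6%, 21.1% and 30.9%.

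The CCR4 ligand Ccl17, a neighbour of Ccl22, rose at all times in both genotypes, and its mean at 24 h was 4.38 ± 2.16 CPM in WT cells (0.0336 ± 0.029 CPM at 0 h) and 12.9 ± 12.2 CPM in Aim2-/- cells (0.0817 ± 0.029 CPM at 0 h, SD, n = 3). The rise of Ccl17 in WT cells at 3 h was not called without WT 1. Ccl24, known as eotaxin-2, rose from 0 counts in all 3 WT libraries to 4.32 ± 1.75 CPM at 24 h and reached 22.6 ± 21.5 CPM in Aim2-/- cells. Ccl9, between Ccl5 and Ccl3 in their cluster, rose at 24 h by 2.30 on the log2 scale in WT cells (edgeR adjusted p = 0.0012) and by 1.73 in Aim2-/- cells (edgeR adjusted p = 0.005). Ccl6 of the same cluster was not called, with log2 changes of 0.19 and 0.97 at 24 h. Cx3cl1, which lies between Ccl22 and Ccl17 and encodes fractalkine, moved against both and fell by 3.03 in WT cells and fell by 4.01 in Aim2-/- cells on the log2 scale at 24 h (edgeR adjusted p = 0.00017 and 6.8e-06).

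The platelet chemokine gene Ppbp had log2 changes of -3.36 in WT and -3.67 in Aim2-/- cells at 24 h, both called, while Pf4 was called higher in Aim2-/- cells alone (1.23, edgeR adjusted p = 0.021, with 0.63 in WT cells), with no call for the difference between these changes (0.60, edgeR adjusted p = 0.77). The level of Pf4 was higher in Aim2-/- cells at 6 h (log2 difference 2.23, edgeR adjusted p = 0.011) and 24 h (2.17, edgeR adjusted p = 0.038), and without WT 1 it was called at 6 h (2.20, edgeR adjusted p = 0.037) and not at 24 h (2.12, edgeR adjusted p = 0.091). Ccl25 rose at 24 h by 0.94 in WT and 1.18 in Aim2-/- cells. Ccl20, the ligand of CCR6, was called in Aim2-/- cells at 24 h (1.82, edgeR adjusted p = 0.023) and not in WT cells (1.13, edgeR adjusted p = 0.15), again with no call for the difference between them. Between genotypes, Ccl9 was higher in Aim2-/- cells at 0 h (log2 difference 2.62, edgeR adjusted p = 0.016) and 6 h (2.10, edgeR adjusted p = 0.017), and without WT 1 at 6 h alone (2.01, edgeR adjusted p = 0.048). Of the 14 ligands, 2, 0, 4 and 2 were called higher at 0, 3, 6 and 24 h, against 3.24%, 0.254%, 8.78% and 0.659% of all genes, and none lower. Without WT 1 these counts were 0, 0, 3 and 0 of 15, against 4.27%, 1.97%, 7.83% and 0.92% of all genes.

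The receptor genes described here, Ccr1, Ccr3, Ccr4, Ccr8, Cxcr3 and Xcr1, passed the filter and moved in different directions. Ccr4, the receptor of CCL22, rose at each time in both genotypes, by 2.67 in WT and 2.19 in Aim2-/- cells on the log2 scale at 24 h (200 ± 13 and 171 ± 29.5 CPM). Ccr8, the receptor of CCL1, rose in WT cells by 0.91, 0.89 and 0.53 at 3, 6 and 24 h and was not called in Aim2-/- cells, where it began at 123 ± 41 CPM against 68.3 ± 17.3 CPM. The changes of these receptor genes were not called different between the genotypes at any time with all libraries, and without WT 1 the change of Ccr4 at 6 h was called lower in Aim2-/- cells. Cxcr3 fell at 24 h, with a log2 change of -2.17 in WT cells and -1.96 in Aim2-/- cells. Ccr3 and Xcr1 fell at 24 h in both genotypes from levels under 3 CPM, and Xcr1 had 0 counts in all 3 Aim2-/- libraries at 24 h. Ccr1 stayed under 2 CPM in all groups and was not called with stimulation. Without WT 1, Cxcr3 was also called lower in WT cells at 3 and 6 h.

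Between genotypes, Ccr8 (0.85) and Ccr1 (2.45) were called higher in Aim2-/- cells at 0 h, and Cxcr3 (0.75) and Ccr3 (1.87) at 6 h. Ccr4 was lower at 6 h (-0.78, edgeR adjusted p = 0.012), where 7.01% of all genes were called lower. Without WT 1, Cxcr3 was called higher at all 4 times, Ccr8 and Ccr4 were called higher at 0 h, and Ccr1 was not called.

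Among genes of interferon gamma signalling, Ifng rose at every time in both genotypes, reaching 95.6 ± 29.5 CPM at 24 h in WT cells (13.9 ± 3.54 CPM at 0 h) and 316 ± 135 CPM in Aim2-/- cells (26.8 ± 8.89 CPM at 0 h). Irf1, which encodes a transcription factor of the pathway, rose at 3 and 6 h, to 1567 ± 226 CPM in WT and 1116 ± 176 CPM in Aim2-/- cells at 3 h. Socs1, a feedback inhibitor, rose at all times and by 4.27 on the log2 scale at 3 h in WT cells. The receptor genes Ifngr1 and Ifngr2 and the kinase gene Jak1 fell at all times in both genotypes, Ifngr1 with a log2 change of -3.74 in WT cells at 24 h, while Jak2 fell at all times in Aim2-/- cells and at 24 h alone in WT cells. Between genotypes, Socs1 (0.88) was higher in Aim2-/- cells at 0 h, and the genes named here were not called at 3, 6 and 24 h. The Ifng differences were 0.95, 1.03, 0.80 and 1.73 at 0, 3, 6 and 24 h, with edgeR adjusted p of 0.21, 0.26, 0.18 and 0.061. Without WT 1, Ifng was again not called between genotypes at any time. Without that mouse, Ifng and Jak1 were not called at 3 h in WT cells, Jak2 was also higher at 0 h, and Irf1 was lower in Aim2-/- cells at 3 h, where 0.747% of all genes were called lower.

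Genes most like each of the 8 over the 24 libraries were found by Pearson's r of log2 CPM. These libraries come from 6 mice and all share the same stimulation times, so r is a description with no test. For Ccl3 they were Ccl4 (0.99), Il13 (0.96) and Ccl1 (0.96), and for Ccl4 they were Ccl3, Il13 (0.97) and Akr1c18 (0.96). Ccl1 was most like Bdh2 (0.98), Il3 (0.98) and Crtam (0.97), and Xcl1 was most like Ccl1 (0.94), Il4i1 (0.93) and Slc14a1 (0.93). Ccl5 was most like Areg (0.98), Camk2n1 (0.98) and Cxcr4 (0.98). Ccl22 was most like Mettl6 (0.97), Srek1ip1 (0.97) and Pomp (0.96). Cxcl9 was most like Serpina3g (0.96), Serpina3f (0.96) and Batf2 (0.94), and Cxcl10 was most like Foxp3 (0.97), Lilr4b (0.97) and Gbp3 (0.96). By Spearman's rho the same 3 genes were found for Cxcl9 and 0 of the 3 for Ccl22 and Xcl1. For Ccl1, Ccl3, Ccl4, Ccl5 and Cxcl10, 1 of the 3 was found again, namely Bdh2, Ccl4, Ccl3, Areg and Lilr4b in that order. Foxp3 and Il13 were not among the 3 by Spearman's rho.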

How the data were processed

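RNA-seq counts of 24 libraries were analysed. Per the labels and the study's methods, stranded mRNA libraries were sequenced as 51-nt single-end reads and aligned with STAR to GRCm38 with Ensembl annotation. The paper reports RNA-seq of naive cells and of cells cultured toward regulatory T cells, and not of these stimulation times. Whether its methods describe these libraries as well was not stated. The counts deposited by the authors were whole numbers per gene with no normalization. The strand setting and software versions were not given in the sources used here. The study's methods name a GENCODE annotation as well as the Ensembl one. STAR, DESeq2 and edgeR are named in the submitters' processing notes. Of 54446 identifiers, 54409 matched GENCODE annotation.

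Groups came from the labels. edgeR 4.0.16 (R 4.3.3) with TMM factors (0.928 to 1.087), filterByExpr (minimum count 10), a mean for each of the 8 groups and the quasi-likelihood test was fitted to all 24 libraries, with Benjamini-Hochberg adjustment over the 15325 genes tested and calls at an adjusted p under 0.05. Two-sided tests compared genotypes at each time, their responses, and stimulation for genes outside the 8. The biological coefficient of variation was 18.6%. Counting error only is covered by count floors. The test was also run on simulated counts with known changes. These had the same spread for all genes and no mouse effect, so libraries that share a mouse were not covered.

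Libraries of 1 mouse deviated together (r of 0.14 to 0.57 for 36 pairs against -0.43 to 0.074 for 72 pairs of different mice), and the labels give the mouse, so a mouse block was fitted with limma 3.58.1. Alternatives used DESeq2 1.42.0, limma-voom, other scalings and filters, and each mouse left out. The labels name the mice but not whether cultures were pooled, so n counts mice.

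The 8 genes, lists and tests were chosen with earlier results of these data known. Named were all 8 genes, the 3 most correlated genes with a symbol that is no clone name and a group mean of at least 1 CPM, other ligands with a group mean of at least 5 CPM, receptors and interferon gamma genes, of which some genes are not reported here. Over 51-base words, 14 of 2964 of Cxcl9 occur in other genes, and Ccl1, Ccl3, Ccl4, Ccl5 and Ccl22 share none. Xcl1 shares 50 of 473 with Gm20743 and Cxcl10 shares 83 of 2345 with Art3, on the opposite strand in both.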

Additional observations from a re-analysis of the deposited data

How the results depend on the processing

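Numbers of the 8 genes called between genotypes at 0, 3, 6 and 24 h were 2, 1, 2 and 3 by edgeR and did not change with RLE size factors, library totals or a mean of at least 1 CPM. DESeq2 called 4, 2, 2 and 3, and limma-voom called 1, 2, 3 and 0. No filter on counts gave 5, 5, 4 and 8, and a fit of the libraries compared alone gave 2, 0, 3 and 0. Unless printed, shares of all genes called under the alternatives of this section are not given here. Such counts therefore do not set the listed genes apart from other genes. Mice are replicates within a genotype. With the mouse as a random replicate block (limma-voom) the counts were 1, 2, 3 and 1. A block on the mouse number, which is shared only as a number between genotypes, gave 4, 7, 7 and 8, with no share of all genes given for it. Leaving out 1 mouse at a time gave 0 to 5, 0 to 3, 1 to 4 and 0 to 8. The highest counts came without Aim2-/- 2, where 7.77%, 4.64%, 14% and 8% of all genes were called higher at 0, 3, 6 and 24 h. The lowest at 24 h came without Aim2-/- 1 (0.0909% of all genes), WT 3 or WT 4. For the difference in response at 6 h, 1 gene (Ccl3) was called by DESeq2, without a filter (1) and with the mouse as a fixed replicate block (1). Among the other ligands, limma-voom called 3 and the libraries compared alone 2 in WT cells at 3 h, the block called 10 in WT and 10 in Aim2-/- cells at 6 h, and leaving out 1 mouse gave 2 to 5 in WT and 3 to 6 in Aim2-/- cells at 3 h. The estimate of Xcl1 at 0 h changed sign with RLE factors (-0.0084), DESeq2 (-0.0099) and no filter (-0.022), and ran from -0.42 to 0.49 when 1 mouse was left out. Those of Ccl1 and Ccl22 at 0 h ran from -0.35 to 0.85 and from -0.44 to 1.44. Of 477 values of the 8 genes between genotypes under all alternatives, 382 kept their direction and side of the threshold, 53 became called, 34 lost the call and 8 changed sign. The causes were not tested. Counts of 2 to 19 per library limit Ccl1 and Ccl22 at 0 h.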
